A study of Homo sapiens with 4 samples.

Results

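NEAT1 and MALAT1 are neighbouring genes on the long arm of human chromosome 11 whose products are long non-coding RNAs of the nucleus. Their H3K27ac-marked enhancer regions are described here across the 4 deposited tables of Kasumi-1 cells. Members are all regions to which the deposited annotation gives the gene name NEAT1 or MALAT1, 10 of the 45672 regions in the 4 tables. The genes were selected on having regions in all 4 tables and with the signal and rank of those regions known, so counts, densities and ranks are given as description, without a test.

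Kasumi-1 is an established human acute myeloid leukaemia line with the t(8;21) translocation. The sgSETD8 group (genotype label SETD8 knockout, 2 samples) received CRISPR/Cas9 with a guide against SETD8, the histone H4 lysine 20 monomethyltransferase encoded by KMT5A. The sgNT group (genotype label WT, 2 samples) is its control, and NT is read here as a non-targeting guide. No label says whether the cells were a pool or 1 clone, gives a time after delivery, or states that samples of a group came from separate cultures. The assay was CUT&Tag for H3K27ac, an acetylation of histone H3 found at active promoters and enhancers; a transposase tethered to the antibody cuts the DNA beside the mark. The titles and antibody labels name H3K27ac, whereas the series design text names H3K27me1, and the labels of the samples are followed here.

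Each table lists enhancer regions, made by joining peaks, with the authors' signal on hg38. By the names inside the region identifiers the tables form 2 pairs, each with 1 sgSETD8 and 1 sgNT table: a dense pair (18061 sgSETD8 and 15149 sgNT regions, median width 1499 and 1515 bp) and a sparse pair (7276 sgSETD8 and 5186 sgNT regions, median width 341 and 512 bp). The table taken as sparse sgNT has identifiers that name the cell line and no guide. The signal of a region divided by its width is called its density here, and what it is scaled to is not stated. Read depth is unknown, and each pair has 1 table per group, so no value has a replicate error. Over 2 tables against 2 an exact two-sided permutation test cannot give a p below 0.333. Of 9 myeloid progenitor markers, 9 had a region in both dense tables, and 7 and 6 in the sparse sgSETD8 and sgNT tables. Of 10 markers of other cells, 4 and 3 had a region in dense sgSETD8 and sgNT. In sparse sgSETD8 and sgNT it was 3 and 1. PAX5 had regions in all 4 tables, 8 and 7 in dense sgSETD8 and sgNT and 1 in each sparse table. CDH5 (3 and 1) and CD3E (1 and 1) had regions in both dense tables. EPCAM had a region in dense sgSETD8 only, and KRT18 and COL1A2 in sparse sgSETD8 only. KRT8, ALB, COL1A1 and GFAP had none in any table. The targeted gene KMT5A had 1 region in each dense table and 0 in each sparse table, and these regions say nothing about the level of the protein.

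NEAT1 RNA is the scaffold of paraspeckles, nuclear bodies that form around its long isoform and hold RNA-binding proteins such as SFPQ and NONO. Its short isoform shares the same start and stops early in the gene. MALAT1 RNA gathers in nuclear speckles, which store splicing factors, and its 3′ end is cut off as a small tRNA-like RNA, mascRNA. Both RNAs are among the most abundant long non-coding transcripts of many cell types, and TALAM1 is transcribed antisense to MALAT1.

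In RefSeq (GRCh38.p14) NEAT1 spans chr11:65422798-65445540 on the forward strand, 22.7 kb, and MALAT1 spans chr11:65497738-65506516, 8.78 kb, with a gap of 52.2 kb between them. FRMD8 ends 9.27 kb before the NEAT1 start. The RefSeq promoter table used here holds 2 MALAT1 windows, each reaching from 250 bases before to 50 bases after a start site. They are shown because they lay inside the joined MALAT1 region of both dense tables and outside every region of both sparse tables. Whether a peak or a bridged gap of those dense regions covers the windows is not known. Capitals mark matches to the motifs named in the paragraph after them, and the sequences run 5′ to 3′ on the forward strand.
MALAT1 window at chr11:65497488-65497787: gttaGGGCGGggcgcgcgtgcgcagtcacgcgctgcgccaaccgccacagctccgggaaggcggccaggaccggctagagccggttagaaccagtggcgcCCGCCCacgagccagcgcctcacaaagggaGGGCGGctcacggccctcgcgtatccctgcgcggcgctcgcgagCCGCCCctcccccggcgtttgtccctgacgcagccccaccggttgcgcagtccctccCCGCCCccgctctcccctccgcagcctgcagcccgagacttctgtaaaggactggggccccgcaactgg
MALAT1 window at chr11:65498795-65499094: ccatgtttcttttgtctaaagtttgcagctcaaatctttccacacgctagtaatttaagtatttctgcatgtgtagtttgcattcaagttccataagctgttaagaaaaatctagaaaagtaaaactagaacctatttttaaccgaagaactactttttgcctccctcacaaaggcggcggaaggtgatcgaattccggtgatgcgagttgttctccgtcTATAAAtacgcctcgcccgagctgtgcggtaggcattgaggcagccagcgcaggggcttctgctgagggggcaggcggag

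The following motifs were looked for on both strands of these windows, by exact letters. The GC box (GGGCGG) matched the first window 5 times and the second window 0 times, and 45.0% of the 35116 promoter windows in the table hold it. The TATA box (TATAAA) matched the second window once, 30 bases before its start site, and the first window 0 times, against 11.5% of all windows with a match. None of the matches overlapped. The RUNX core (TGTGGT, in 13.1% of all windows), the CCAAT box (CCAAT, 34.6%), the E box (CACGTG, 7.26%), the AP-1 motif (TGACTCA, 4.95%) and the ETS motif (CCGGAAGT, 4.14%) matched neither. The first window is 73.7% G and C with 37 CG dinucleotides and the second 46.0% with 14, against medians of 58.7% and 14 over all windows. The nearest sparse sgSETD8 region lay 2642 bp from the first and 1335 bp from the second window, and the nearest sparse sgNT region 8976 and 7807 bp. A match shows letters only, not that a factor was bound.

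NEAT1 carried 1 broad acetylated region around its start in each dense table. In dense sgSETD8 cells it lay at chr11:65415890-65431526, 15.6 kb wide, made of 1 peak, with a density of 4.19 per bp and rank 134 of 18061 by signal. In dense sgNT cells it lay at chr11:65416351-65431153, 14.8 kb wide, made of 1 peak, with a density of 5.04 and rank 147 of 15149. Both reached from upstream of the start, 6908 bp in sgSETD8 and 6447 bp in sgNT, into the first part of the gene, 8729 bp and 8356 bp of it. The annotation placed the centre of both in the exon of the short NEAT1 isoform, 910 bp after the start in sgSETD8 and 954 bp in sgNT. The density of this region was rank 3 in its table in both groups, behind regions of ANXA2R and of the receptor tyrosine kinase gene KIT. It was 7.12 times the table median in sgSETD8 and 6.67 times in sgNT. Among dense regions at least 10 kb wide, 4294 in sgSETD8 and 3679 in sgNT, it came second to KIT in both groups, at 9.53 and 8.79 times the median of such regions. It is a single peak, however, set against regions that mostly bridge gaps. Joined with its neighbours across 12.5 kb, the summed signal per bp was 1.65 in sgSETD8 and 1.87 in sgNT, over 43.6 and 43.7 kb. Signal in the bridged gaps does not enter that sum. The value is therefore not set against the density of regions that were deposited as joined.

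Dense sgSETD8 held a further NEAT1 region, chr11:65432877-65433423, 547 bp wide within the long isoform, with a density of 0.880 and rank 12297. It was the only one of the 3 dense sgSETD8 member regions with no overlapping dense sgNT region, the nearest lying 1723 bp away. The sparse sgNT NEAT1 region, joined from 7 peaks, covered it wholly. Of all dense sgSETD8 regions 34.0% had no sgNT counterpart, so 1 of 3 is near the background. Both dense sgNT member regions had a sgSETD8 counterpart, against a background of 22.7% without one. They were 14.8 and 37.5 kb wide against a table median of 1515 bp, and that background was not matched for width.

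The dense MALAT1 region was joined from several peaks, unlike that of NEAT1, so their widths and densities as deposited are not set against each other. In sgSETD8 it lay at chr11:65470697-65511052, 40.4 kb wide and joined from 6 peaks, with a density of 1.52 and rank 147. In sgNT it lay at chr11:65470653-65508138, 37.5 kb wide and joined from 7 peaks, with a density of 1.73 and rank 195. In both groups it began about 27 kb before the MALAT1 start (27041 bp in sgSETD8, 27085 bp in sgNT). It covered the whole gene, mascRNA and TALAM1, by peaks or by bridged gaps, which cannot be told apart here. Beyond the MALAT1 start it ran for 13314 bp in sgSETD8 and 10400 bp in sgNT, and the last 2.91 kb were covered in sgSETD8 but in neither sgNT table. By density it ranked 431 in sgSETD8 and 545 in sgNT.

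**Figure D1:**
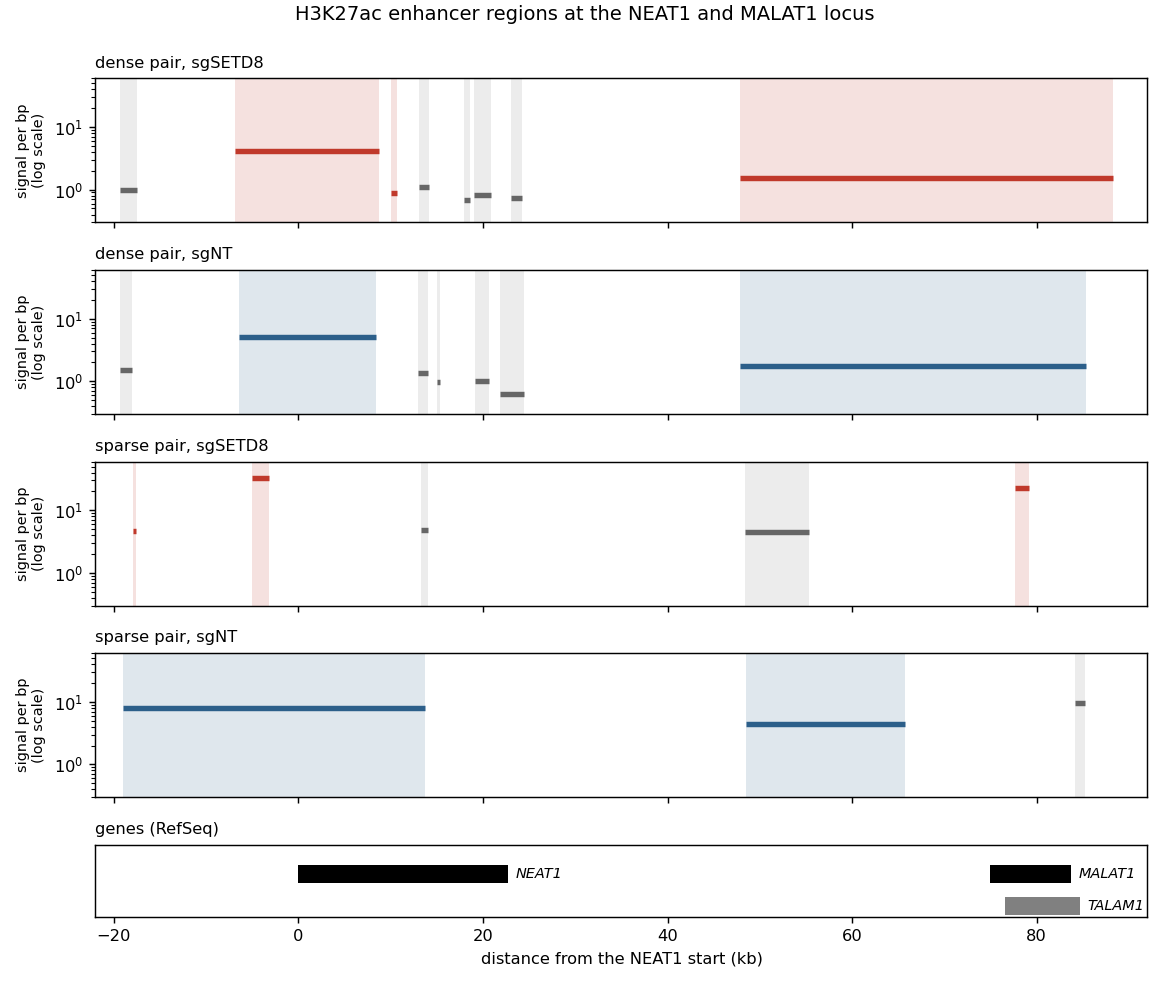
Regions at the locus in the 4 tables. The x axis is the distance from the NEAT1 start in kb and the y axis the authors' signal per bp on a log scale; coloured lines are regions named NEAT1 or MALAT1, grey lines are regions with another gene name, and shading marks their extent. The broad dense NEAT1 region stands at 4.19 in sgSETD8 and 5.04 in sgNT, and in sparse sgSETD8 the NEAT1 and MALAT1 regions are narrow, at 33.3 and 22.8.

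At both dense regions the signal density of the groups differed by about as much as at the dense regions matched between the groups. The NEAT1 regions of the groups covered 94.7% of the sgSETD8 and 100% of the sgNT region, and the MALAT1 regions 92.8% and 99.9%. The log2 density ratio, sgSETD8 over sgNT, was -0.27 at NEAT1 and -0.19 at MALAT1. Over all 6011 dense regions that covered each other by at least 50%, the median ratio was -0.27 with an SD of 0.30. Relative to that median the ratio was 0.0046 at NEAT1 and 0.085 at MALAT1, at percentiles 50.8 and 62.0 of the matched regions, both within 1 SD. The regions named NEAT1 or MALAT1 together held 0.145% of the table's signal in sgSETD8 (56.5 kb covered) and 0.141% in sgNT (52.3 kb covered). What the signal is scaled to is not stated, so the negative ratios are not read as a loss of the mark. In bulk cells, a difference in the share of cells that carry the mark and one in its amount per cell cannot be told apart.

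**Figure D2:**
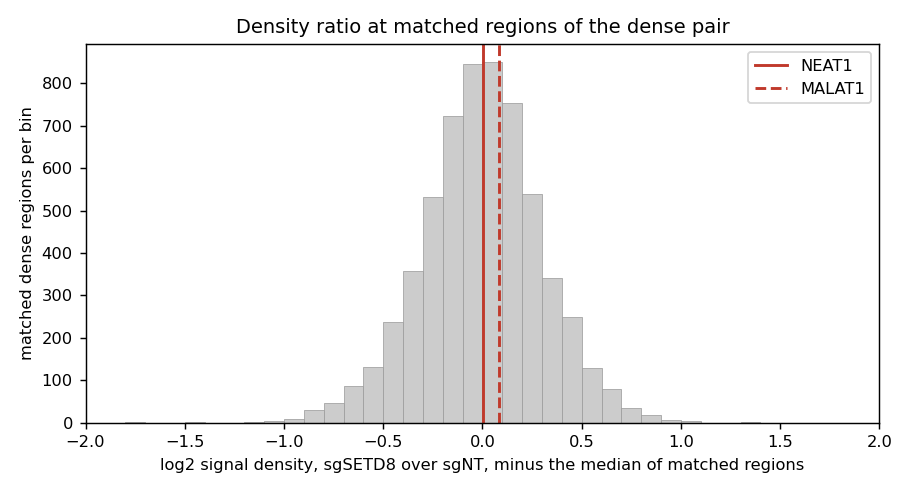
Histogram of the log2 ratio of signal density, sgSETD8 over sgNT, minus the median, at 6011 matched dense regions (x axis in log2 units, y axis the number of regions in bins of 0.1). The solid line marks NEAT1 at 0.0046 and the dashed line MALAT1 at 0.085, both near the centre.

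The sparse pair gave another picture at NEAT1. In sparse sgSETD8 the main NEAT1 region lay at chr11:65417791-65419571, 1.78 kb wide and joined from 2 peaks, wholly upstream of the gene, from 5007 to 3227 bp before the start. It had a density of 33.3 per bp, second of 7276 behind a region of PROS1, and rank 4 by signal. In sparse sgNT the only NEAT1 region lay at chr11:65403821-65436554, 32.7 kb wide and joined from 7 peaks, and it held the highest signal of all 5186 regions, 1.96% of the table's total. Its density of 7.99 was rank 71 in the table and the highest of the 223 sparse sgNT regions at least 10 kb wide. A region's density averages over the joined peaks and the gaps between them, so densities of regions of such different width cannot be set against each other. Within 1 kb of the NEAT1 start on either side, sparse sgSETD8 had 0 of 2000 bases covered and sparse sgNT all 2000. Those sgNT bases lie in the region joined from 7 peaks. Whether a peak or a bridged gap covers them is not known.

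A further sparse sgSETD8 region was named NEAT1, chr11:65404822-65405244, 423 bp wide, with a density of 4.72 and rank 533. It lay in an exon of FRMD8, centred 17765 bp before the NEAT1 start, the distance the table gives beside the name NEAT1. The same position was covered in dense sgSETD8 by a region named FRMD8. The edges of the 2 sparse sgSETD8 regions named NEAT1 lay 12546 bp apart, just over the 12.5 kb across which peaks are commonly joined. Within the long isoform the sparse sgSETD8 table had a region named MIR612, for the microRNA gene at the NEAT1 3′ end (699 bp, density 4.87), of which 448 bp lay in the broad sgNT region. All 3 of these sgSETD8 regions thus overlapped the single sparse sgNT region, of which they covered 8.10%.

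For MALAT1 the 2 sparse tables named different stretches of DNA. In sparse sgSETD8 the MALAT1 region lay at chr11:65500430-65502013 inside the gene, 2692 to 4275 bp after its start, 1.58 kb wide and joined from 2 peaks, with a density of 22.8 (rank 3 by density) and rank 21 by signal. The annotation placed it in the exon of the antisense TALAM1. In sparse sgNT the MALAT1 region lay at chr11:65471302-65488511 between the genes, 26.4 to 9.23 kb before the MALAT1 start, 17.2 kb wide and joined from 3 peaks, with a density of 4.36 and rank 7. The 2 regions did not overlap, and 0 of the 8779 bases of MALAT1 were covered in sparse sgNT, against 1584 in sparse sgSETD8. By position, however, the upstream stretch was covered at least in part in both sparse tables. A sparse sgSETD8 region named LOC101927789 (chr11:65471233-65478132, density 4.56, rank 26) covered 39.7% of the sgNT region. A sparse sgNT region named TALAM1 lay just past the MALAT1 end (chr11:65506902-65507991, density 9.55, rank 235), where sparse sgSETD8 had none.

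Of the 3 sparse sgSETD8 member regions, the MALAT1 region alone had no sgNT counterpart, the nearest lying 4888 bp away, while 85.1% of all sparse sgSETD8 regions had none. Of the 2 sparse sgNT member regions 0 lacked a sgSETD8 counterpart, against 79.1% of all sparse sgNT regions. With at least 50% of a region required to be covered, however, 2 of 2 lacked one. These 2 regions were 32.7 and 17.2 kb wide against a table median of 512 bp, and the 79.1% was not matched for width. Both dense tables covered all 1584 bases of the sparse sgSETD8 MALAT1 region. Between the outer edges of the members (107 kb), bases covered in both groups were 17.9% of those covered in either in the sparse pair, against 8.04% over all chromosomes, and 88.1% against 55.8% in the dense pair. These shares were not tested, and the locus was chosen with them in view.

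**Figure D3:**
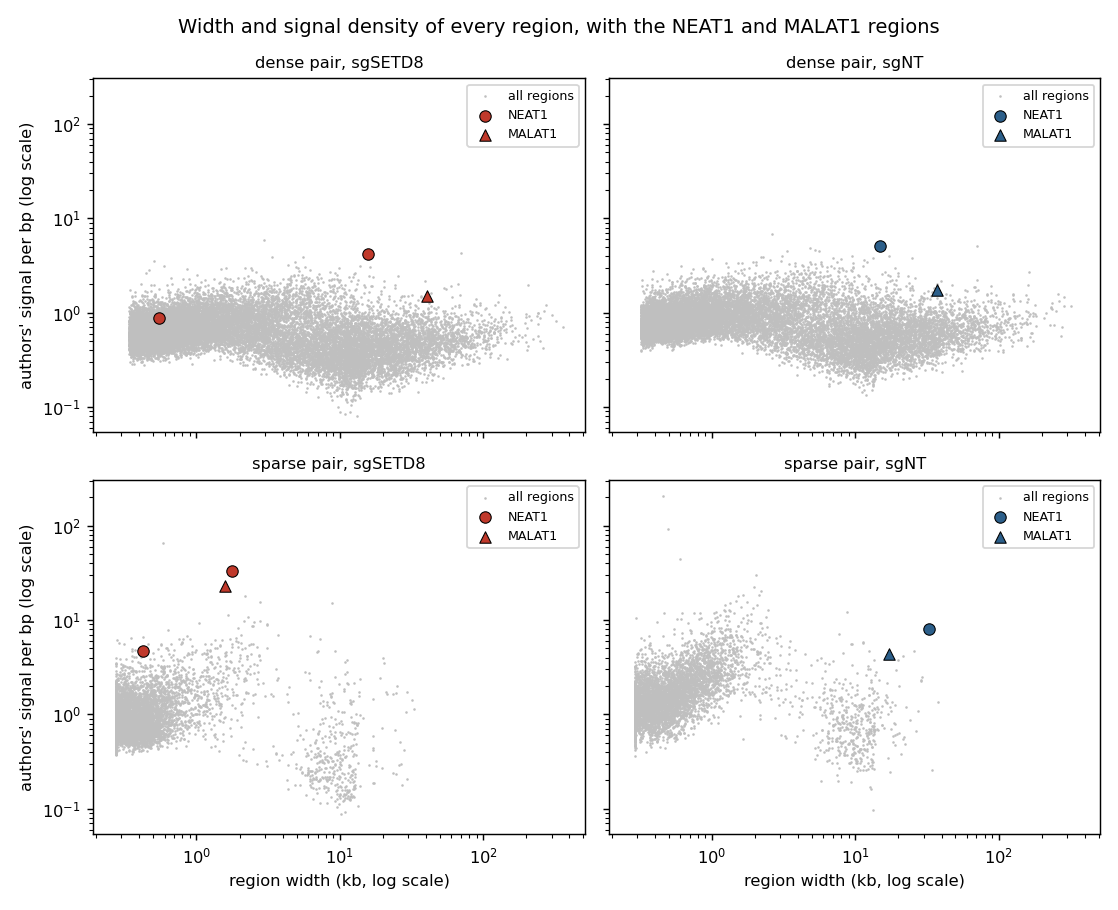
Every region by width (x axis, kb, log scale) and authors' signal per bp (y axis, log scale), in 1 panel per table, with NEAT1 as circles and MALAT1 as triangles. The broad NEAT1 region lies at the upper edge of the cloud in both dense panels, and the NEAT1 and MALAT1 regions of sparse sgSETD8 are rank 2 and 3 of that table by density.

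Coverage of fixed stretches does not depend on gene names, but it counts the gaps bridged where peaks were joined, as in the 32.7 kb sparse sgNT region. The NEAT1 gene was covered over 56.5% in sgSETD8 and 53.7% in sgNT in the dense pair, and over 3.07% and 60.5% in the sparse pair. Between FRMD8 and NEAT1 the shares were 74.5% in sgSETD8 and 69.5% in sgNT in the dense pair, and 19.2% and 100% in the sparse pair. The gap between the genes was covered over 54.1% in sgSETD8 and 55.1% in sgNT (dense), and over 13.2% and 33.0% (sparse). The MALAT1 gene was covered wholly in both dense tables, and over 18.0% in sgSETD8 and 0% in sgNT in the sparse pair. The direction of the sparse difference was thus opposite at the 2 genes, lower in sgSETD8 at NEAT1 and higher at MALAT1. The MIR612 hairpin, 100 bases near the NEAT1 3′ end, was covered in none of the 4 tables, although 4 dense regions of each group carried its name.

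**Figure D4:**
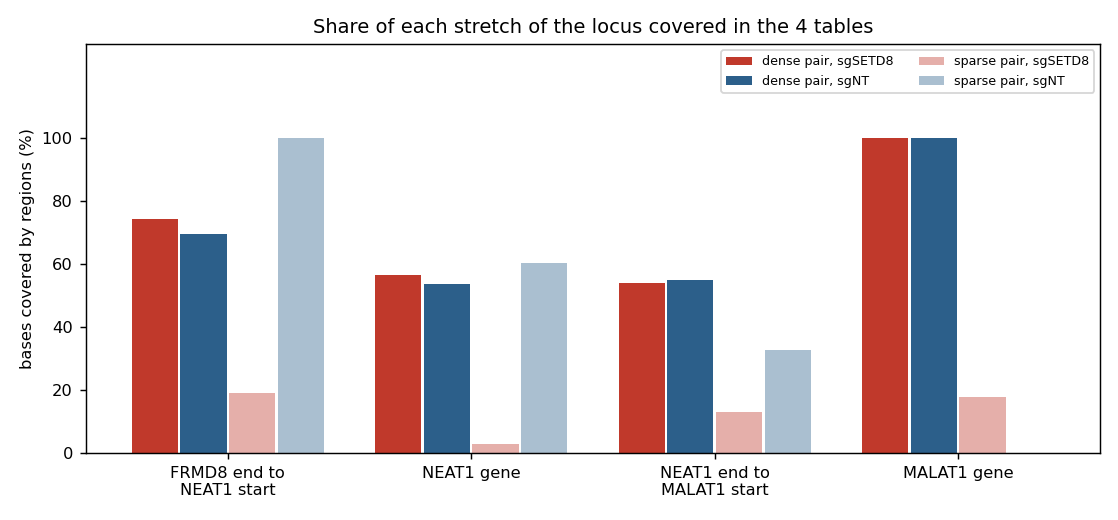
Percentage of bases covered by regions (y axis) in 4 stretches of the locus (x axis), with sgSETD8 in red and sgNT in blue, dense tables in full and sparse tables in pale colour. The dense bars of the 2 groups are close at both genes, and the sparse bars are 3.07% and 60.5% at NEAT1 and 18.0% and 0% at MALAT1.

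Over the whole 107 kb, 9.06 kb were covered in all 4 tables. Most of it was 1 stretch of 6.83 kb between the genes (chr11:65471302-65478132), 26.4 to 19.6 kb before the MALAT1 start, followed by the 1.78 kb upstream of NEAT1 and a stretch of 448 bp within the long isoform. No base was covered in both sgSETD8 tables and in neither sgNT table, and 125 bases were covered in both sgNT tables and in neither sgSETD8 table. All bases of the sparse sgSETD8 regions in this span were also covered in dense sgSETD8. By contrast 14.2 kb were covered in sparse sgNT alone, all of it inside the joined NEAT1 region.

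Summed by name, the members covered 3.79 kb in sgSETD8 against 49.9 kb in sgNT in the sparse pair, a log2 ratio of -3.72, and 0.11 in the dense pair. Counted by position, so that the sgSETD8 regions named LOC101927789 and MIR612 enter, the sparse pair had 11.4 kb in sgSETD8 and 51.0 kb in sgNT, a log2 ratio of -2.16. Over the whole tables this ratio was -0.17 for the sparse pair and 0.20 for the dense one. The mean log2 ratio by name, -1.80 ± 2.71 (SD, n = 2 pairs), was smaller than its spread, and it rested on the sparse pair. Which samples the pairs hold is not known, so that SD only describes how far apart the pairs lay and is not a replicate error. The members held 1.40% of the sparse sgSETD8 signal and 2.53% of the sparse sgNT signal, at 0.0550% and 0.644% of the covered length. The median density of the tables was 0.810 in sparse sgSETD8 and 1.49 in sparse sgNT, and their part in the difference at the locus was not tested.

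How peaks were joined differed between the pairs. In the dense pair the NEAT1 region and its neighbours carried identifiers of single peaks, although they lay within 12.5 kb of each other. There were 7 such regions in sgSETD8 and 6 in sgNT, from the end of FRMD8 to just past the end of NEAT1. Joined, they would span chr11:65403508-65447065 in sgSETD8 (43.6 kb, rank 138) and chr11:65403508-65447212 in sgNT (43.7 kb, rank 152), near-identical stretches. Both ranks rest on signal summed over the separate regions, without the gaps. In sparse sgNT, by contrast, 7 peaks over 32.7 kb of the same interval were joined. Widths in the dense and the sparse pair are therefore not on the same footing.

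The other chromosome 11 regions within 500 kb on either side of the members were counted as well. How many a stretch of this length holds elsewhere was not counted. There were 6 in sgSETD8 and 10 in sgNT in the dense pair, with densities up to 1.14 and 1.32, and 6 and 5 in the sparse pair. The best-ranked dense one lay at the AP-1 gene FOSL1 in sgSETD8 (rank 1887) and at SLC25A45 in sgNT (rank 2475). The best-ranked sparse sgSETD8 one lay at OVOL1-AS1 (rank 351). In the dense pair 2 of the 6 in sgSETD8 and 5 of the 10 in sgNT lacked a counterpart, against 34.0% and 22.7% of all regions. In the sparse pair it was 5 of the 6 in sgSETD8 and 4 of the 5 in sgNT, against 85.1% and 79.1%.

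Among the 1592 genes with a region in all 4 tables, MALAT1 was the gene most like NEAT1, and NEAT1 the one most like MALAT1, by the best rank taken as a percentage of the table. The mean absolute difference over the 4 tables was 0.185 percentage points. The other genes most like NEAT1 were LINC00501 (0.227), MACF1 (0.290), a gene of a cytoskeletal linker protein, PTGER4 (0.319), a gene of a prostaglandin receptor, and MIR222 (0.413), a microRNA gene. For MALAT1 they came in the order PTGER4 (0.217), MIR222 (0.228), LINC00501 (0.285) and MACF1 (0.300). All ranked among the best 40 regions of both sparse tables. Genes that rank near the top of every table can differ only little on this measure, and the members were selected with their ranks known. The MALAT1 regions of the sparse tables did not overlap, so the likeness is one of rank and not of the same stretch of DNA.

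Genes of proteins and RNAs tied to these nuclear bodies were then listed, to set the locus beside them. A gene of these lists has a region here by gene name only. Whether a region of the other group overlapped under another name was not checked, except where stated. Paraspeckle proteins had a dense region in sgSETD8 only for 8 of 31 genes, in sgNT only for 2 and in both for 13. As a share of the 23 listed genes with a dense region, 34.8% were in sgSETD8 only, against 20.5% of all genes with a dense region, and 8.70% in sgNT only, against 11.4%. The sgSETD8-only genes included SFPQ (rank 7190) and NONO (rank 16955), partners in the paraspeckle core, with EWSR1 (1278), HNRNPA1 (7669) and HNRNPUL1 (3715), genes of RNA-binding proteins. SS18L1 (rank 7249) and the 3′ end processing factor gene CPSF7 (2378) had dense regions in sgNT only. PSPC1, a paralogue of SFPQ and NONO, had a region in all 4 tables. In the sparse pair 2 listed genes had a region in sgSETD8 only, 2 in sgNT only and 2 in both, where 45.9% of all genes with a sparse region were sgSETD8-only and 28.8% sgNT-only.

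Nuclear speckle and SR proteins had 5 sgSETD8-only and 0 sgNT-only genes in the dense pair, and 1 and 5 in the sparse pair, of 26 genes. As shares of the listed genes with a region these were 27.8% and 0% of 18 in the dense pair, against 20.5% and 11.4% of all genes, and 16.7% and 83.3% of 6 in the sparse pair, against 45.9% and 28.8%. The 5 dense genes were the speckle scaffold gene SRRM2 (rank 6523), PNISR (9761), RBM25 (13865), PNN (15660) and ACIN1 (17990). PNN alone in this list had regions in the sgSETD8 table and not the sgNT table of each pair. Genes tied to the processing and stability of the 3′ ends (20) had 2 sgSETD8-only and 1 sgNT-only gene in the dense pair, and 2 and 1 in the sparse pair. The dense shares were 18.2% and 9.09% of 11 genes with a region, near the 20.5% and 11.4% of all genes, and the sparse pair had 3 such genes. The dense ones were DGCR8 (rank 14899) and METTL14 (12608) in sgSETD8, and the RNase P subunit gene RPP14 (14992) in sgNT. DROSHA, the nuclear microRNA-processing nuclease, had 4 sgSETD8 and 2 sgNT dense regions, with best ranks of 894 and 4917.

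Other long non-coding RNA genes (40) had 5 sgSETD8-only and 1 sgNT-only gene in the dense pair, and 7 and 2 in the sparse pair. The shares were 27.8% and 5.56% of 18 genes with a dense region, against 20.5% and 11.4% of all genes, and 58.3% and 16.7% of 12 with a sparse region, against 45.9% and 28.8%. SNHG5, a snoRNA host gene, and DLEU2, host of the miR-15a and miR-16-1 cluster, had, by gene name, regions in both sgSETD8 tables and in neither sgNT table. SNHG5 ranked 10504 in dense and 1373 in sparse sgSETD8, and DLEU2 193 and 3298. CYTOR went opposite ways, with 4 sparse regions in sgSETD8 only and 1 dense region in sgNT only. Neighbours on 11q13 (24 genes) had 1 sgSETD8-only and 4 sgNT-only genes in the dense pair, and 4 and 2 in the sparse pair. These were 14.3% and 57.1% of 7 genes with a dense region and 66.7% and 33.3% of 6 with a sparse region, beside the same background. LTBP3 was in sparse sgSETD8 and dense sgNT only. SLC25A45 was in dense sgNT only by name, but a dense sgSETD8 region named FRMD8 covered 11.8% of its region. The shares of these lists were not tested.

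**Figure D5:**
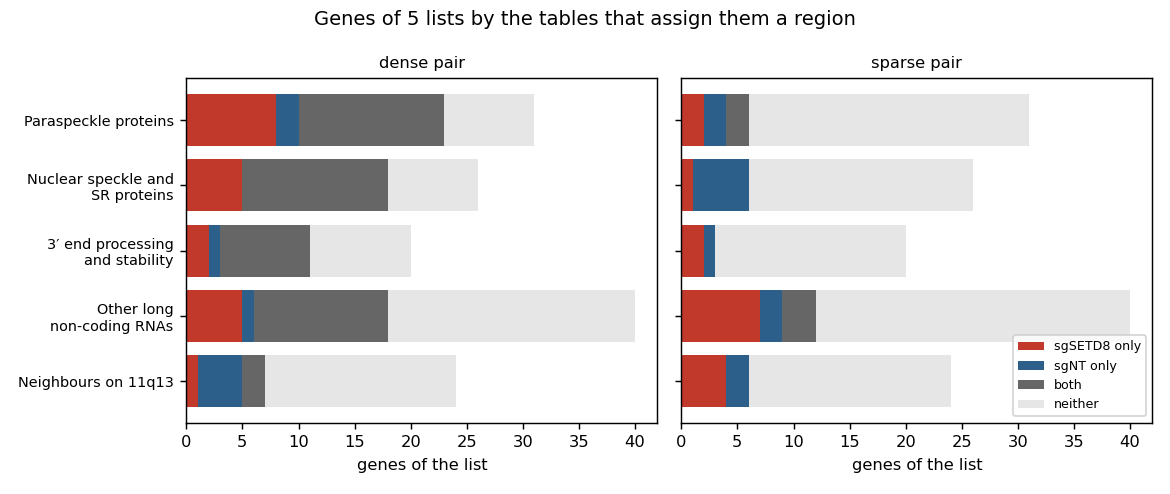
Number of genes (x axis) in 5 lists (y axis) with a region in sgSETD8 only, sgNT only, both or neither, by gene name. Panels show the dense and the sparse pair. In the dense pair 8 paraspeckle genes are sgSETD8-only and 2 sgNT-only, and in the sparse pair the nuclear speckle list has 1 and 5.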

How the data were processed

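H3K27ac CUT&Tag was done on 100000 cells per library in 2 sgSETD8 and 2 sgNT samples. The submitters' processing notes name cutadapt, Bowtie2 and the hg38 build, without versions. How peaks were called, joined and annotated is not stated in these notes. The authors deposited 1 signal per region, equal to a density of 4 decimals per bp times the region's width. Tables were given a group from the guide named in their region identifiers, and which sample of a group a table holds is unknown. All value columns had a group.

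Members, the 5 gene lists, the alternatives and the rule for named genes were chosen with earlier results of these data known. Named genes were the members, genes with regions within 500000 bp, up to 6 genes per list (first those in 1 group only; some are not reported here) and the 5 genes most like each member; SFPQ, NONO and PSPC1 were named after their values were seen. Older names of 2 listed genes were left out. Overlaps (at least 1 bp) used bedtools 2.31.1, and matched regions covered each other by at least 50%. The overlap and matching steps were tested on simulated regions. Gene spans and promoter sequences came from RefSeq (GRCh38.p14), which held 2 windows for MALAT1; NEAT1 is named only. Python 3.11.15, numpy 2.4.6, pandas 2.3.3 and matplotlib 3.10.9 were used. No p-values were computed.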

Additional observations from a re-analysis of the deposited data

How the results depend on the processing

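Of 84 values under alternative settings, 64 stayed close to the value given, 19 moved and 1 was counted as changing sign. Signs were not compared for the density ratios, which all counted as close. Relative to the median NEAT1 stood at 0.0046, but at -0.27 without centring and at -0.0019 with 90% coverage required. MALAT1 stood at 0.085, but at -0.19 without centring. Close meant within 1.5 times for counts and ranks, and within 1 SD for log2 ratios. For covered bases that SD, 2.71, is the gap between the 2 pairs themselves and says nothing about stability: by position the sparse ratio was -2.16, against -3.72 by name. Counting every region in the span, whatever its name, gave 5 sparse sgSETD8, 8 dense sgSETD8 and 7 dense sgNT regions. Counting the members' peaks gave 5 for sparse sgSETD8, 10 for sparse sgNT and 8 for each dense table. Ranked by density, the best NEAT1 region was 2 and 71 in sparse sgSETD8 and sgNT and 3 and 3 in dense sgSETD8 and sgNT, and the best MALAT1 region 3, 339, 431 and 545 in the same order. With at least 50% of a region covered, 2 sparse sgNT members lacked a counterpart. With regions merged across 12.5 kb, 0 dense sgSETD8 members did. The mean log2 ratio of covered bases was between -3.72 (without the dense pair) and 0.11 (without the sparse pair), so its sign rests on the sparse pair. With the best-ranked 5000 regions, 6 listed genes were sgSETD8-only and 3 sgNT-only in the dense pair, against 21 and 8, since fewer regions entered. The ranks after merging were added after the data were seen. No member regions of the sparse pair covered each other by 50%, so the density ratio has no sparse value. Leaving the sparse pair out therefore could not change that ratio, and this setting counts among the 64. No paired analysis was possible because the labels give no replicate numbers; the pairs come from the region identifiers and entered no test. Depth is unknown, so an absent region in the sparse tables cannot be read as absent acetylation.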
